A study of Mus musculus with 8 samples.

Results

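The host genes of small nucleolar RNAs described here are Snhg1, Gas5, Snhg3, Snhg5, Snhg6, Snhg8, Snhg11 and Snhg12, 8 genes chosen by name among the 38115 gene rows counted in the Myc-CaP tumors. Rows named Gas5, Snhg3, Snhg11 and Snhg12 were found, which is 4 of the 8. Snhg5 was found by its identifier (ENSMUSG00000097195), since the row carries the older clone name CT025673.1, so that 5 genes had values. Snhg1, Snhg6 and Snhg8 were not analysed here, although the rows of Snord22, Snord87 and Snora24, small nucleolar RNAs annotated inside them, were. In all, 29 small nucleolar RNA genes inside these hosts had a row.

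A small nucleolar RNA host gene is transcribed as a long RNA whose introns hold small nucleolar RNAs. After splicing, the intron is trimmed to the small RNA, which joins proteins of the C/D or the H/ACA particle and guides methylation or pseudouridylation of ribosomal RNA or takes part in its cleavage. The joined exons of many of these hosts encode no protein, start with a pyrimidine tract as ribosomal protein mRNAs do, and are degraded by nonsense-mediated decay when they are translated. Gas5 takes its name from growth arrest, and its exons can bind steroid receptors.

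RNA sequencing counts of 8 orthotopic tumors were used. Myc-CaP is a prostate cancer cell line from FVB mice that carry a MYC transgene under a probasin promoter, which is active in prostate epithelium, and each phenotype rests on a single line, androgen sensitive (AS) or castrate resistant (CR). Cells of either line were grafted into the anterior prostate of male FVB mice, some intact and some castrated beforehand, and the labels do not say which tumor grew in which host, nor the age of the mice. There were 4 primary and 4 metastatic tumors, with 2 AS and 2 CR tumors in each group. The metastases are labelled as matched, but not to which primary tumor, and the site of the metastases is not given. The number that ends a tumor name below tells the tumors of a group apart and links no metastasis to a primary tumor. The labels do not say that the 2 tumors of a group came from separate mice, so the p-values measure only the spread between these tumors.

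Total counts ranged from 20905806 to 91886163 per tumor, and levels are given as CPM, counts divided by the library size scaled with TMM factors and multiplied by 1000000. Primary CR1 stood apart in the share of mitochondrial ribosomal RNA, 2.53% against 10.4% to 23.8% in the other tumors. Rows of small nucleolar RNAs under 100 bases held 0.0043% to 0.0123% of the counts in the AS tumors and 0.00864% in primary CR1, but 0.0725% to 0.154% in the other 3 CR tumors. The summed level of 6 epithelial markers was higher in every CR tumor than in every AS tumor, from 1280 to 2340 CPM in AS and from 2440 to 3430 CPM in CR. That of 4 prostate secretion markers was lower, at 0.196 to 7.37 CPM in AS and 0.0242 to 0.167 CPM in CR, with Spink1 at 0 in all 8. The summed markers of fibroblasts, endothelium, myeloid cells, lymphocytes, neurons, hepatocytes and skeletal muscle overlapped between the groups in both comparisons.

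The hosted RNAs on which the results turn are shown first. Sequences are those of GENCODE M21 on GRCm38, read 5′ to 3′. Snhg3 (ENSMUSG00000085241, chromosome 4, 132348014 to 132353686, minus strand) hosts Snora73a and Snora73b, long H/ACA RNAs that take part in cleavage of the ribosomal RNA precursor. Both are 205 bases long and identical at 198 positions (96.6%), and the capitals mark the 7 bases that differ.
Snora73a (chr4:132352775-132352979, minus strand): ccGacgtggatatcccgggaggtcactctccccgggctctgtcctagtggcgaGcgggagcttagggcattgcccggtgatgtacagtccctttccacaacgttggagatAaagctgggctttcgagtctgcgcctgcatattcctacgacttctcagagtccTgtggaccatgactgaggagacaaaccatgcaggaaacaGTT
Snora73b (chr4:132352322-132352526, minus strand): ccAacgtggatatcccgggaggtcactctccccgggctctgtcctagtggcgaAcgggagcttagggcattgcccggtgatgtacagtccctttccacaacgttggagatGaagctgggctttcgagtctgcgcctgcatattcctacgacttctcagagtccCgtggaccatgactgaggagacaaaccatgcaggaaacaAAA

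Snhg12 (ENSMUSG00000086290, chromosome 4, 132308623 to 132311024, plus strand) hosts the H/ACA RNAs Snora16a, Snora44 and Snora61 and the C/D RNA Snord99. Snora44 is shown because it had the highest count of these 4 RNAs in 7 of 8 tumors, and Snora16a and Snora61 because they had the smallest p between the phenotypes there. Capitals mark an ACA in the last 8 bases, which Snora44 lacks as annotated.
Snora16a (chr4:132309465-132309600, plus strand): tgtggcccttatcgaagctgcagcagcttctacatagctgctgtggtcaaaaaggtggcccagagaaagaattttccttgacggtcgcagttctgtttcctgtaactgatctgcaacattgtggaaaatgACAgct
Snora44 (chr4:132309941-132310069, plus strand): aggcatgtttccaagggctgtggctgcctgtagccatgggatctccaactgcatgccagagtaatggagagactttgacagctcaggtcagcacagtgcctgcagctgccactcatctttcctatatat
Snora61 (chr4:132310240-132310369, plus strand): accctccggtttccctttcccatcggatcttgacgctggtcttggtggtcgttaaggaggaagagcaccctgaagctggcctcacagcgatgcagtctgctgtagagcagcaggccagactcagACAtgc

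Gas5 (ENSMUSG00000053332, chromosome 1, 161034422 to 161038539, plus strand) hosts C/D RNAs, of which the row named SNORD24 and Snord47 had the highest counts. Snord22, a C/D RNA that acts in processing of the small subunit ribosomal RNA, lies inside Snhg1 and is shown because it had the smallest p of the hosted RNAs between metastatic and primary tumors. Capitals mark the letters TGATGA (C box) in the first 18 bases and CTGA (D box) in the last 12 bases.
SNORD24 (chr1:161036057-161036139, plus strand): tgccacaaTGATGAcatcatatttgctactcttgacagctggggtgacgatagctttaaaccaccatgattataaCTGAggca
Snord47 (chr1:161038082-161038158, plus strand): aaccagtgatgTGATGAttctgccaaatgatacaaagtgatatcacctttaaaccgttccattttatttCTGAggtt
Snord22 (chr19:8725866-8725991, plus strand): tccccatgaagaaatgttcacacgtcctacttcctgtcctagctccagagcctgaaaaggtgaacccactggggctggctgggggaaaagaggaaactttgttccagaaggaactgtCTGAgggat

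How these loci are annotated bears on every value below. The M21 exons of Gas5, Snhg5 and Snhg12 include retained introns and contain all of their small nucleolar RNAs, and 77.6% of Snora73a lies inside Snhg3 exons. The antisense gene Gm17300 shares 71.5% of the Snhg3 exon bases, and Rcc1, a protein-coding gene on the same strand, shares 13.7%. The count of Gm17300 was 96.9% to 102% of the summed counts of Snora73a and Snora73b in each of the 8 tumors, although it lies on the opposite strand. A read can therefore have entered several of these rows, and the strand setting of the counting is not given in the sources used here. Zbtb37 overlaps the Gas5 locus on the opposite strand and shares no exon base with Gas5.

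Promoters of 7 of the 8 hosts were found in the RefSeq table (GRCm38.p6), Gas5 with 2 starts, which makes 8 windows of 300 bases. Those of Gas5, Snhg5 and Snhg12 are shown from 40 bases before to 20 bases after the annotated start, with capitals marking TATANA and a run of at least 5 pyrimidines at the start.
Gas5 (chr1:161035126-161035185, plus strand): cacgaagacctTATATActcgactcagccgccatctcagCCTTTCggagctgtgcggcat
Snhg12 (chr4:132308638-132308697, plus strand): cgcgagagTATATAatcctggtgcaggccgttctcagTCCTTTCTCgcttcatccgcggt
Snhg5 (chr9:88522878-88522937, minus strand): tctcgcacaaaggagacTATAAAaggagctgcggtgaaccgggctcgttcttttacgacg

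TATANA, searched on the strand of the gene and beginning 40 to 20 bases before the start, was found in 4 of the 8 windows, those of Gas5 (its second start), Snhg5, Snhg8 and Snhg12. Of all 32851 promoters, 3.1% held it there. An unbroken run of 5 or more pyrimidines touching the bases from 2 before to 3 after the start was found in 4 windows, those of Gas5 (the same start), Snhg3, Snhg8 and Snhg12, and in 22.2% of all promoters. CACGTG, which reads the same on both strands and does not overlap either pattern, was found in none of the 8 windows and in 7.2% of all promoters. These matches describe the letters only.

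Gas5 was counted at 296 CPM in primary AS1, 296 CPM in primary AS2, 334 CPM in metastatic AS1 and 236 CPM in metastatic AS2. In the CR tumors its level was 401 CPM in primary CR1, 297 CPM in primary CR2, 589 CPM in metastatic CR1 and 240.9 CPM in metastatic CR2. The 2 tumors with the highest levels were metastatic CR1 and primary CR1. The other 2 CR tumors lay within the range of the AS tumors, so the groups overlapped in both comparisons.

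Snhg3 was counted at 200 CPM in primary AS1, 314 CPM in primary AS2, 187 CPM in metastatic AS1 and 182 CPM in metastatic AS2. In the CR tumors it stood at 308 CPM in primary CR1, 109 CPM in primary CR2, 104 CPM in metastatic CR1 and 56.1 CPM in metastatic CR2. Primary CR1 lay with the AS tumors, and the other 3 CR tumors lay below all 4 AS tumors.

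Snhg12 was counted at 91.6 CPM in primary AS1, 137 CPM in primary AS2, 55.2 CPM in metastatic AS1 and 72.1 CPM in metastatic AS2. The CR values were 138 CPM in primary CR1, 161 CPM in primary CR2, 207 CPM in metastatic CR1 and 77.9 CPM in metastatic CR2. Primary CR2 and metastatic CR1 lay above the highest AS tumor, primary CR1 did so by a small margin, and metastatic CR2 lay inside the AS range.

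Snhg5 (chromosome 9, 88521050 to 88522929, minus strand), which hosts Snord50a and Snord50b, was low and even in the AS tumors, with 11.2 and 12.2 CPM in primary AS1 and AS2 and with 13.1 and 11.7 CPM in metastatic AS1 and AS2. It was 26.8 CPM in primary CR1 and 21.9 CPM in metastatic CR1, but 10.4 CPM in primary CR2 and 13.4 CPM in metastatic CR2. As with Gas5, primary CR1 and metastatic CR1 were the high ones.

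Snhg11 (ENSMUSG00000044349, chromosome 2, 158375638 to 158386145, plus strand), annotated as protein-coding in the mouse, was near the limit of detection. Its counts were 19, 17, 14 and 37 reads in primary AS1, primary AS2, metastatic AS1 and metastatic AS2, and 0, 11, 8 and 32 reads in primary CR1, primary CR2, metastatic CR1 and metastatic CR2. The count of 0 in primary CR1 allows a level of up to 0.0363 CPM (3 reads, counting error only), and the highest level was 1.34 CPM in metastatic CR2. The summed level of 7 neuronal markers, 2 of them counted in all 8 tumors, ran from 15.3 to 28.4 CPM in AS and from 20.9 to 36.7 CPM in CR tumors, and its part in the Snhg11 values was not tested.

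**Figure D1:**
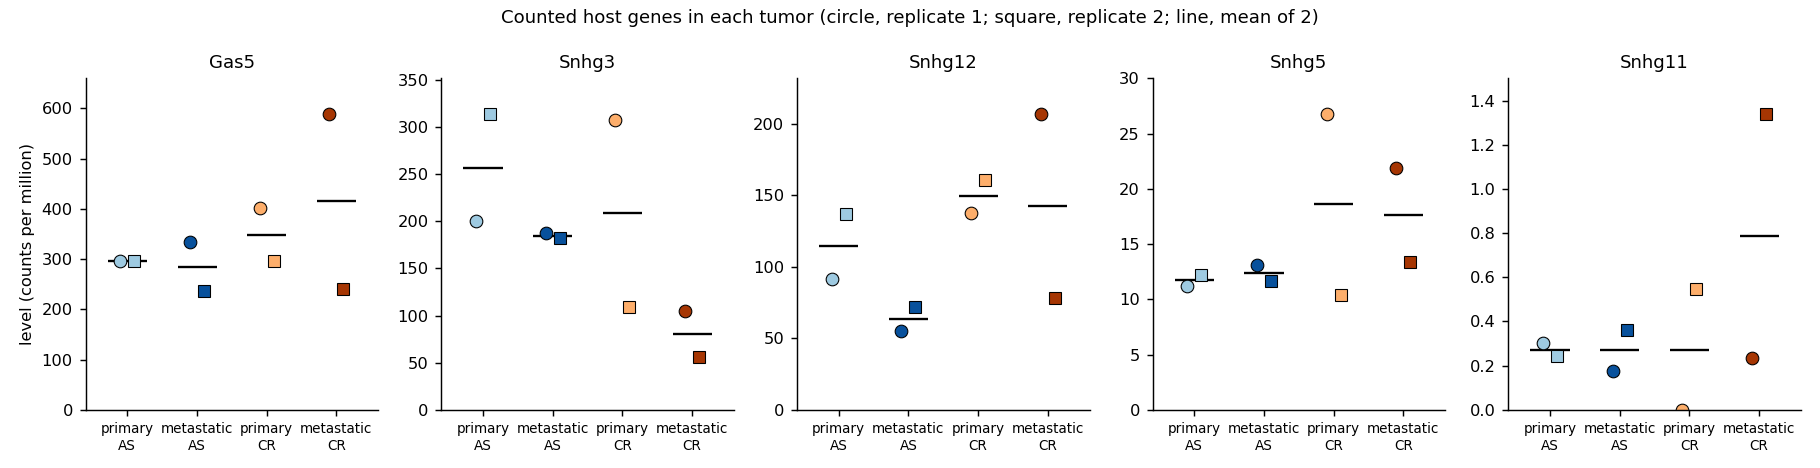
Level of each counted host gene, in CPM on a linear axis from 0, in the 8 tumors by tumor type and phenotype; circles are replicate 1, squares replicate 2, and the line is the mean of 2. Primary CR1 and metastatic CR1 (circles) are the highest for Gas5 and Snhg5, and for Snhg3 primary CR1, at 308, lies far above the other CR tumors.

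Per kilobase of exon, the mean level over the 8 tumors was 185 CPM for Snhg3 (SD 94.6), 89.4 CPM for Gas5 (SD 30.5), 48.9 CPM for Snhg12 (SD 21.6), 8.71 CPM for Snhg5 (SD 3.43) and 0.047 CPM for Snhg11 (SD 0.0481). Each gene lay above the next in this order in 8 of 8 tumors, except that Snhg3 lay above Gas5 in 6 of 8, so the order of those neighbours did not hold beyond their spread. The high place of Snhg3 rests on the 986 exon bases that M21 gives it and on reads that its row may share with Snora73a.

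To ask whether the hosts changed with spread of the tumor, metastatic tumors were compared with primary tumors. None of the 5 measured hosts was called. Snhg3 had the largest difference among the 4 well counted hosts, with a mean of 132 CPM in metastatic tumors (SD 63.5, n = 4) and 233 CPM in primary tumors (SD 97.7, n = 4). Its log2 fold change was -0.81 ± 0.44 (SE), with adjusted p = 0.997 by edgeR's quasi-likelihood test. Within each phenotype both metastatic tumors lay below both primary tumors for Snhg3, a pattern whose share over all genes was not computed. With each of the 4 possible pairings as a block its log2 fold change was -0.85 to -0.82, with adjusted p from 0.700 to 0.889 by edgeR. Its unadjusted p was under 0.05 in the 2 pairings that set metastatic CR1 beside primary CR1 (as for 6.93% and 6.19% of all genes) but not in the other two, and with phenotype as a covariate (6.7%), where the log2 fold change was -0.93 ± 0.37 with adjusted p = 0.726 by edgeR. Snhg12 was at 103 CPM (SD 69.97) against 132 CPM (SD 28.9), a log2 fold change of -0.36 ± 0.40. Metastatic CR1 was at 207 CPM and the other metastatic tumors at 55.2 to 77.9 CPM. With each tumor left out the log2 fold change of Snhg12 ran from -0.93 (without metastatic CR1) to -0.15. Gas5 was at 350 CPM (SD 166) against 322 CPM (SD 52.5), a log2 fold change of 0.12 ± 0.31.

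Of the remaining hosts, Snhg5 had a log2 fold change of -0.018 ± 0.35 and Snhg11 of 0.997 ± 1.04, both with adjusted p of 0.997 or above. With all tumors kept and no block or covariate, no host of the 5 had an unadjusted p under 0.05 by edgeR, DESeq2 or limma-voom. None was called. The same test called 0 of 17104 genes (0.0%), with 459 at an unadjusted p under 0.05 (2.68%), and DESeq2 and limma-voom also called 0 (0.0% each). All 5 hosts overlapped between metastatic and primary tumors, whereas 1.7% of the genes tested did not (0.854% higher, 0.848% lower). In bulk tumor RNA, fewer cells that express a gene and less of its RNA per cell cannot be told apart.

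Of the 11 hosted RNAs tested between metastatic and primary tumors, 2 had an unadjusted p under 0.05 by each of edgeR, DESeq2 and limma-voom, and 0 passed the adjusted threshold, as 0 of 179 small nucleolar RNA genes did (0.0%). Snord22, in Snhg1, was counted at 405 and 373.5 CPM in primary AS1 and AS2, 258 CPM in primary CR1 and 171 CPM in primary CR2. In metastatic tumors it was 75.6 and 122 CPM in AS1 and AS2, 163 CPM in CR1 and 70.3 CPM in CR2. Every metastatic tumor lay below every primary tumor, with the closest pair, 163 and 171 CPM, both CR tumors.

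The mean of Snord22 in metastatic tumors was 0.357 times that in primary tumors, with a log2 fold change of -1.49 ± 0.36 and adjusted p = 0.997 by edgeR. An exact two-sided permutation test gave p = 0.0286, the smallest that 4 against 4 tumors can give. That p restates that the groups did not overlap, for the RNA with the smallest edgeR p of the 11 tested. Among all genes tested, 0.848% were lower in metastatic tumors without overlap. Snora44, in Snhg12, had 80.5 CPM in primary (SD 18.9) and 46.5 CPM in metastatic tumors (SD 23.3), a log2 fold change of -0.79 ± 0.34 with adjusted p = 0.997 by edgeR. Its groups overlapped, with metastatic CR1 at 79.95 CPM and primary AS1 at 54.9 CPM.

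The comparison of CR with AS tumors, with tumor type as a covariate, asks whether the hosts differ between the phenotypes. It called 1899 of 18889 genes (10.1%), 899 higher (4.76%) and 1000 lower (5.29%) in CR tumors, and 0 of the 5 hosts. Snhg12 was highest in mean fold among the well counted hosts, at 146 CPM in CR (SD 53.7, n = 4) and 89.0 CPM in AS tumors (SD 35.3, n = 4), 1.64 times as high. Its log2 fold change was 0.75 ± 0.32, with adjusted p = 0.173 by edgeR's quasi-likelihood test. It was the 1 host of the 5 with an unadjusted p under 0.05 by edgeR, as 27.1% of all genes had. DESeq2 gave 2 such hosts (Snhg3 and Snhg12, 30.1% of all genes) and limma-voom 1 (Snhg3, 26.9%), and after adjustment both called 0 hosts, with 18.6% and 8.78% of all genes called.

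Snhg3 was lower in mean, at 144 CPM in CR (SD 112) and 221 CPM in AS tumors (SD 62.6), with a log2 fold change of -0.77 ± 0.38 and adjusted p = 0.229 by edgeR. Gas5 was at 382 CPM (SD 153) in CR and 290 CPM (SD 40.5) in AS tumors, a log2 fold change of 0.37 ± 0.29 with adjusted p = 0.440. Snhg5 was at 18.1 CPM (SD 7.56) against 12.04 CPM (SD 0.830), a log2 fold change of 0.57 ± 0.30 with adjusted p = 0.250. For Snhg5 the spread among CR tumors was far larger than among AS tumors, with primary CR1 and metastatic CR1 above primary CR2 and metastatic CR2. Snhg11 had a log2 fold change of 0.65 ± 1.06 and adjusted p = 0.734. All 5 hosts overlapped between the phenotypes, whereas 17.7% of all genes tested did not (8.64% higher, 9.04% lower).

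The Snhg3 result depended on the tumor left out, and most on primary CR1, the tumor with the low mitochondrial ribosomal RNA share. Primary CR1 was singled out after its values were seen. Without it, the log2 fold change of Snhg3 was -1.25 with adjusted p = 0.0118 by edgeR, in a fit that called 3958 genes (21.0%, with 12.5% lower). Without the filter on low counts, where 9.72% of 31875 genes were called, Snhg3 had -0.82 with adjusted p = 0.0081 and Snhg12 had 0.69 with adjusted p = 0.0318 by edgeR, and both passed. Without metastatic CR1 the Snhg3 value was -0.84 with adjusted p = 0.317, and that of Snhg12 was 0.34 with adjusted p = 0.368. That fit called 3.52% of genes. The Snhg3 value was nearer 0 without metastatic CR2, at -0.51 (adjusted p = 0.442 by edgeR). Without primary CR2 it was -0.59 (adjusted p = 0.379 by edgeR). Among primary tumors alone the log2 fold change of Snhg3 was -0.30, and among metastatic tumors alone it was -1.21 with adjusted p = 0.0882 by edgeR.

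Whether the difference between metastatic and primary tumors itself differed with phenotype was tested by an interaction term, which called 0 genes by edgeR (0.0%), with 517 at an unadjusted p under 0.05 (2.74%), and 2 genes by DESeq2 (0.0106%). No host was among them, and the interaction estimates were -0.93 ± 0.72 for Snhg3, 0.77 ± 0.62 for Snhg12 and 0.29 ± 0.60 for Gas5 on the log2 scale, with adjusted p from 0.964 to 0.978.

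The hosted RNAs were then set beside their hosts. Of 12 tested between the phenotypes, 3 were called and 0 fell by edgeR's quasi-likelihood test. Snora16a in Snhg12 and Snora24 in Snhg8 rose in CR tumors. The third, Snord87 in Snhg6, entered the test only through the CR tumors where it was high, so its call is given as a description. Of all small nucleolar RNA genes tested, 79 of 206 (38.3%) were called, a share above that of these 12. DESeq2 called 5 of the 12 (18.6% of all genes) and limma-voom called 1 (Snora24, 8.78%). By edgeR the count was 7 without primary CR1 (21.0% of all genes) and 1 without primary AS2, metastatic CR1 or primary CR2 (Snora24 each time). It was 0 without metastatic AS1 or metastatic AS2. Of all 18889 genes, 588 were called without primary AS2, 665 without metastatic CR1 and 955 without primary CR2. Without metastatic AS1 and metastatic AS2, 429 and 468 were. The summed share of short small nucleolar RNA rows, given above, was high in primary CR2, metastatic CR1 and metastatic CR2, as Snora16a was. Snora24 and Snord87 lay above the AS tumors in primary CR1 too, Snord87 with 6 reads. Only Snord87 of the 3 is under 100 bases, and the share of the longer rows was highest in primary CR1 (1.8%). The part of these shares in the calls was not tested.

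Snora16a was counted at 4.51 and 5.62 CPM in primary AS1 and AS2 and at 2.39 and 2.57 CPM in metastatic AS1 and AS2. In CR tumors it was 4.45 CPM in primary CR1, 72.7 CPM in primary CR2, 77.6 CPM in metastatic CR1 and 29.9 CPM in metastatic CR2. Primary CR1 again lay among the AS tumors, and the other 3 CR tumors lay far above all AS tumors.

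The log2 fold change of Snora16a was 3.65 ± 0.78, with adjusted p = 0.0246 by edgeR. Snora61 followed the same split, with 12.1 to 22.9 CPM in the AS tumors, 18.5 CPM in primary CR1 and 70.1, 104 and 30.9 CPM in primary CR2, metastatic CR1 and metastatic CR2. Its log2 fold change was 1.68 ± 0.53, with adjusted p = 0.0763. Snora44 did not, at 27.1 to 99.3 CPM in AS and 35.6 to 88.0 CPM in CR tumors, a log2 fold change of 0.40 ± 0.31 with adjusted p = 0.443 by edgeR. Snora44 thus lacked the split of the other two, and no test between these RNAs was run.

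Snora24, an H/ACA RNA in Snhg8, had 1.79 and 2.32 CPM in primary AS1 and AS2, 1.03 and 1.27 CPM in metastatic AS1 and AS2, 4.50 and 17.9 CPM in primary CR1 and CR2, and 16.1 and 5.69 CPM in metastatic CR1 and CR2. Every CR tumor lay above every AS tumor, as 8.64% of all genes tested did. The log2 fold change was 2.81 ± 0.49, with adjusted p = 0.0132 by edgeR. Snord87, a C/D RNA in Snhg6, had 2, 0, 1 and 0 reads in primary AS1, primary AS2, metastatic AS1 and metastatic AS2, and 6, 18, 131 and 5 reads in primary CR1, primary CR2, metastatic CR1 and metastatic CR2, with adjusted p = 0.0291 by edgeR. With 3 reads in all AS tumors together, no fold is given. Snord22 was at 166 CPM in CR (SD 76.9) and 244 CPM in AS tumors (SD 169), a log2 fold change of -0.33 ± 0.35.

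Snora73a and Snora73b were counted far above Snhg3 and moved with it across the tumors (Pearson r = 0.996 and 0.991 of log2(CPM + 1), n = 8 tumors, which share library and depth, and reads where the genes overlap). Snora73b was at 1288 and 1917 CPM in primary AS1 and AS2, 1111 and 1174 CPM in metastatic AS1 and AS2, 2622 and 562 CPM in primary CR1 and CR2, and 581 and 268 CPM in metastatic CR1 and CR2. Snora73a was at 25.7% to 28.9% of the Snora73b count in every tumor. As for Snhg3, primary CR1 lay with the AS tumors, here above all of them, and the other 3 CR tumors lay lowest.

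The log2 fold changes between CR and AS tumors were -0.73 ± 0.52 for Snora73b and -0.84 ± 0.51 for Snora73a, with adjusted p = 0.396 and 0.320 by edgeR. Without primary CR1, a tumor singled out after its values were seen, Snora73a was called, with a log2 fold change of -1.57. So was Snora73b, with -1.49, in a fit that called 21.0% of all genes, with 12.5% lower. The Snhg3 count was 9.34% to 16.6% of the summed Snora73a and Snora73b counts. Since the copies differ at 7 bases and reads were allowed up to 2 mismatches, how the authors' unique mapping divided reads between the copies is uncertain.

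**Figure D2:**
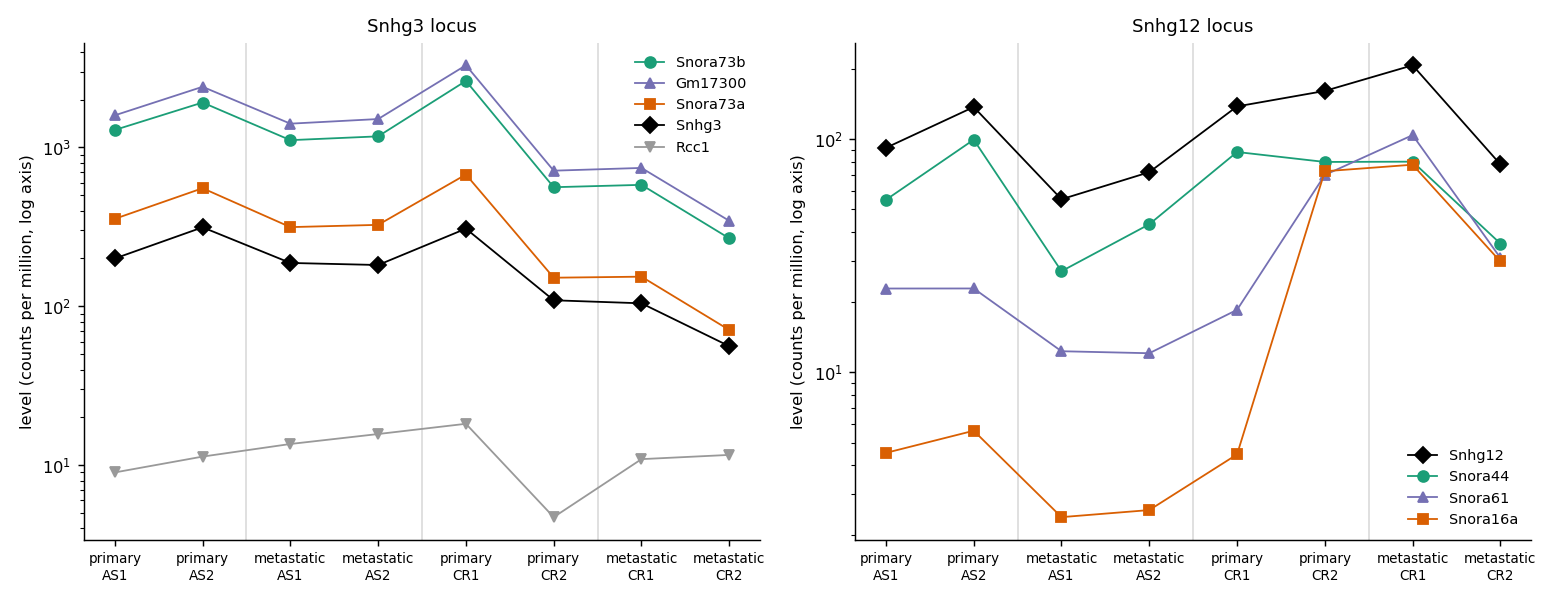
Level in each tumor (CPM, log axis) of Snhg3, Snora73a, Snora73b, the antisense gene Gm17300 and the overlapping Rcc1 at left, and of Snhg12 with Snora16a, Snora44 and Snora61 at right; points are single tumors and lines only join them. At left the first 4 move together, lowest in metastatic CR2 and high in primary CR1 (Snora73b at 2622), while at right Snora16a and Snora61 are high in primary CR2, metastatic CR1 and metastatic CR2 only.

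Rcc1, a chromatin-bound exchange factor for Ran whose gene spans the Snhg3 locus, did not show the Snhg3 profile. It was at 4.71 to 18.2 CPM across the 8 tumors, with r = 0.394 to Snhg3, and had a log2 fold change between CR and AS tumors of -0.11 ± 0.37 with adjusted p = 0.869 by edgeR.

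The rows of Snora44, Snora61 and Snord99 summed to 71.8% to 93.2% of the Snhg12 count in the 8 tumors, so most Snhg12 reads could lie in its small nucleolar RNAs. With Snora16a the sum was 76.1% to 139% and exceeded the host in primary CR2, metastatic CR1 and metastatic CR2, so that some reads of the hosted RNAs were not in the host row. No table tells which, and leaving Snora16a out of the sum is a choice on which the next values rest. The rest of the Snhg12 count, a quantity chosen after its values were seen, was 13.7 and 14.9 CPM in primary AS1 and AS2, 15.6 and 16.9 CPM in metastatic AS1 and AS2, 31.05 and 10.85 CPM in primary CR1 and CR2, and 15.5 and 11.3 CPM in metastatic CR1 and CR2. Primary CR1 lay above all other tumors, metastatic CR1 within the AS range, and primary CR2 and metastatic CR2 below every AS tumor. Over all 8 tumors an exact two-sided permutation test gave p = 0.971 for CR against AS and p = 0.857 for metastatic against primary tumors. The means were 17.2 CPM in CR (SD 9.49) and 15.3 CPM in AS tumors (SD 1.33).

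At Gas5, by contrast, the summed counts of the hosted RNA rows equalled 2.55% to 9.34% of the Gas5 count in 7 tumors and 29.9% in metastatic CR1. Whether those reads are also in the Gas5 row is not known. The SNORD24 row was at 18.9 and 9.99 CPM in primary AS1 and AS2, 11.4 and 5.42 CPM in metastatic AS1 and AS2, 13.99 and 23.0 CPM in primary CR1 and CR2, 154.5 CPM in metastatic CR1 and 13.6 CPM in metastatic CR2. Snord47 was also highest in metastatic CR1, at 11.7 CPM, and between 0.578 and 4.66 CPM elsewhere.

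Metastatic CR1 was thus the tumor with the highest level of both Gas5 and these RNAs. It also had the largest share of short small nucleolar RNA rows, 0.154% of its counts. C/D RNAs of other hosts were highest there too, Snord99 in Snhg12 with 262 reads (0 to 27 elsewhere) and Snord87 in Snhg6 with 131 (0 to 18 elsewhere). The part of that share in the levels of the Gas5 RNAs was not tested. Between the phenotypes, SNORD24 had a log2 fold change of 1.82 ± 0.88 with adjusted p = 0.222 and Snord47 of 1.88 ± 0.74 with adjusted p = 0.141 by edgeR, and without metastatic CR1 these values were 0.48 and 1.116. Snord80 in Gas5 and the SNORD29 row in Snhg1 had their highest counts, 313 and 48 reads, also in metastatic CR1. The remaining C/D RNAs of Gas5, Snhg1 and Snhg5, apart from Snord22, had 0 to 31 reads. Both SNORA71 rows inside Snhg11 had 0 reads in all tumors.

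The ratio of hosted RNAs to host, as log2((summed CPM + 1)/(host CPM + 1)), compares the rows of the small RNAs with that of their host. At Snhg12 and Snhg3 the host row can hold much of the same reads, so the ratio does not separate small RNA from host there. For Snhg5, whose hosted RNAs had 0 reads in 4 tumors, the ratio mostly restates the host's level and appears only among the checks at the end. For Snhg12 it was -0.386 to -0.1 in AS tumors, -0.307 in primary CR1 and 0.305 to 0.467 in the other 3 CR tumors, a mean difference of 0.45 with p = 0.0857 in the exact two-sided permutation test. For Gas5 the difference between CR and AS was 1.11 with exact p = 0.171 and for Snhg3 -0.12 with exact p = 0.571. Between metastatic and primary tumors the 3 ratios differed by -0.20 to 0.26, with exact permutation p from 0.343 to 1.0. Without primary CR1, the Snhg12 ratio differed by 0.62 and the Snhg3 ratio by -0.30 between the phenotypes. That tumor was singled out after its values were seen, and without it the groups no longer overlap in either ratio. The exact permutation p of 0.0286 is then fixed at the smallest it can give, so no conclusion is drawn from it.

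**Figure D3:**
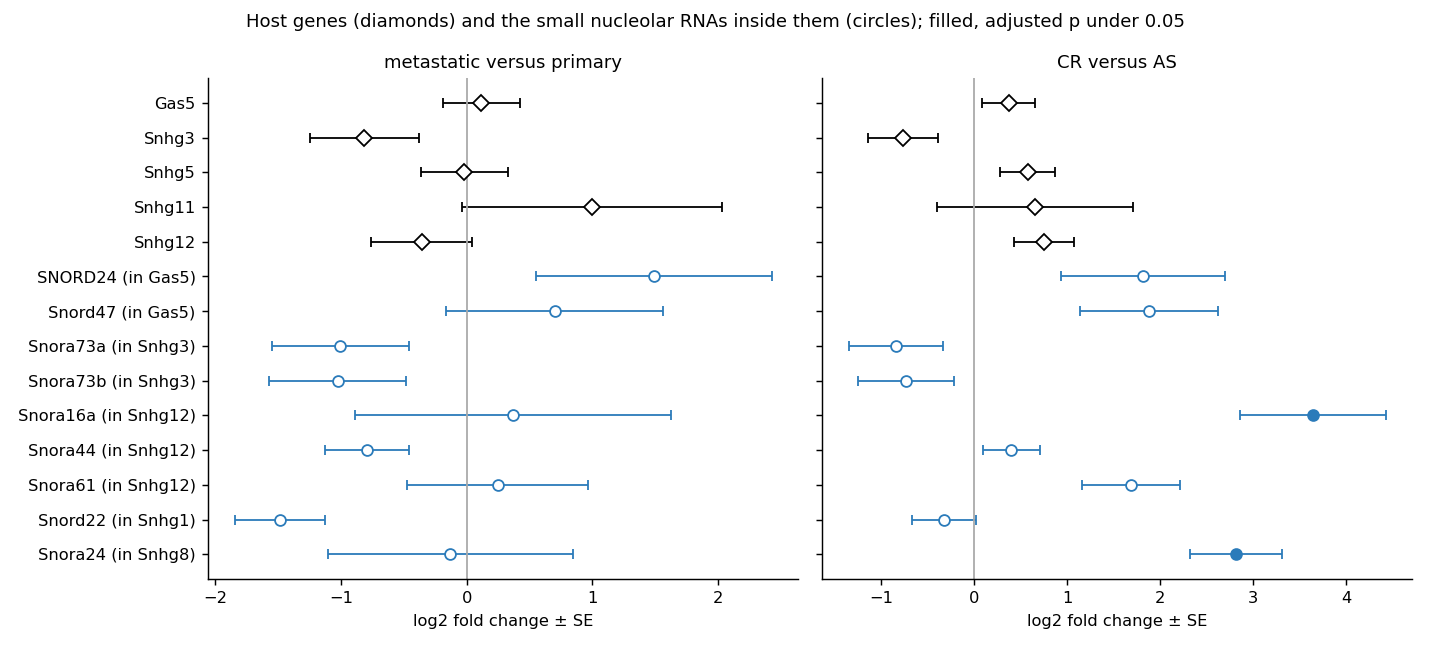
Log2 fold change with its SE (edgeR, n = 4 against 4 tumors) of the 5 host genes (diamonds) and of 9 hosted RNAs (circles), for metastatic against primary tumors at left and CR against AS tumors at right; filled symbols have adjusted p under 0.05. Every symbol at left is open, and at right Snora16a and Snora24 are filled. Snord80, Snord87 and Snord99 are not drawn, and Snord87 was also called between CR and AS tumors.

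Genes around the hosts were taken from lists, beginning with other non-coding hosts. Of 13 such genes, 9 had a row, 8 of them under other names and matched by identifier, and 8 were tested. Between CR and AS tumors 3 of the 8 rose and 0 fell, where 4.76% of all genes rose, and the median log2 fold change of the list was 0.67 against -0.000397 over all genes tested. Snhg20 was at 44.7 to 74.1 CPM in AS and 94.1 to 224 CPM in CR tumors, with a log2 fold change of 1.49 ± 0.33 and adjusted p = 0.0267 by edgeR. Its groups did not overlap, as in 2 of the 8 genes tested here and in 8.64% of all genes, higher in CR tumors.

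Snhg18 was at 0.666 to 8.28 CPM in AS and 17.6 to 56.2 CPM in CR tumors, also without overlap, with a log2 fold change of 2.92 ± 0.71 and adjusted p = 0.0357. Snhg15 was at 14.1 to 28.3 CPM in AS and 23.2 to 49.6 CPM in CR tumors, with 0.96 ± 0.25 and adjusted p = 0.0465 by edgeR. In these hosts primary CR1 lay above the AS tumors, unlike for Snhg3. Zfas1 and Snhg17 had log2 fold changes of -0.083 and 0.090. The count was 4 without primary CR1 (where 8.47% of all genes rose), 2 without metastatic CR2, 1 without metastatic AS1, and 0 with any other tumor left out. Of all 18889 genes, 559 rose without metastatic CR2, 188 without metastatic AS1, and 182 to 454 with any of those others left out.

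Of 31 protein-coding hosts, 7 rose and 0 fell in CR tumors, where 4.76% of all genes rose and 5.29% fell, and the median log2 fold change was 0.46. Rpl5, a protein of the large ribosomal subunit, had 455 to 527 CPM in AS and 671 to 2210 CPM in CR tumors (log2 fold change 1.55 ± 0.35, adjusted p = 0.0278 by edgeR). Rpl21 had 186 to 273 CPM in AS and 341 to 644 CPM in CR tumors (1.13 ± 0.23, adjusted p = 0.0219), and Rpl12 had 112 to 141 CPM in AS and 206 to 289 CPM in CR tumors (0.96 ± 0.17, adjusted p = 0.0142). Cct6a, a chaperonin subunit, rose by 0.70 ± 0.14. In each of these 4 genes every CR tumor lay above every AS tumor, as in 13 of the 31 and in 8.64% of all genes. The count was 13 without primary CR1 (21.0% of all genes), 11 of them higher (8.47%), 8 without metastatic CR2 and 3 without primary CR2. It was 2 without metastatic CR1 (3.52% of all genes), 1 without primary AS1 or primary AS2, and 0 without metastatic AS1 or metastatic AS2. Of all 18889 genes, 1086 were called without metastatic CR2, 955 without primary CR2, 820 without primary AS1 and 588 without primary AS2. Without metastatic AS1 and metastatic AS2, 429 and 468 were. The fall in the count thus went with a fall over all genes.

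The proteins that bind the small RNAs were counted by particle, against 4.76% of all genes higher and 5.29% lower. Of 4 C/D particle proteins Nop58 rose, by 0.70 ± 0.19 with adjusted p = 0.0473 by edgeR. Of 6 H/ACA particle proteins, Gar1 rose by 1.42 ± 0.24 (adjusted p = 0.0122) and Dkc1, the pseudouridine synthase, which is also counted among the protein-coding hosts, by 1.07 ± 0.24 (adjusted p = 0.0279), while Nop10 fell by 0.93 on the log2 scale (adjusted p = 0.0181). Gar1 was at 8.75 to 11.6 CPM in AS tumors, 13.8 CPM in primary CR1 and 30.9 to 37.4 CPM in the other CR tumors.

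Of 10 particle assembly factors, 2 rose (4.76% of all genes did), Nufip1 by 0.84 ± 0.16 and Ruvbl1 by 0.76 ± 0.17. Without metastatic AS1 or metastatic AS2, 0 genes of these 3 lists were called, in fits that called 429 and 468 of all 18889 genes. Without metastatic CR1, 0, 1 and 1 were, as 3.52% of all genes were. Of 20 nonsense-mediated decay factors, 0 passed by edgeR or limma-voom, 6 had an unadjusted p under 0.05 by either (27.1% and 26.9% of all genes), and DESeq2 called 3 (18.6%), as did edgeR without primary CR1 (21.0%). Upf3b, which joins decay factors to exon junctions, had the smallest p of those with a higher level in CR tumors, 20.2 CPM in AS and 35.3 CPM in CR tumors, with adjusted p = 0.0580 by edgeR. The median of the list was 0.024, near that of all genes tested. Between metastatic and primary tumors, 0 genes of any list passed by edgeR, DESeq2 or limma-voom, and 2 of the 77 tested had an unadjusted p under 0.05 by edgeR, Snhg17 (log2 fold change -0.68 ± 0.21) and Eif4a2 (-0.71 ± 0.29), each with adjusted p = 0.997 by edgeR.

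**Figure D4:**
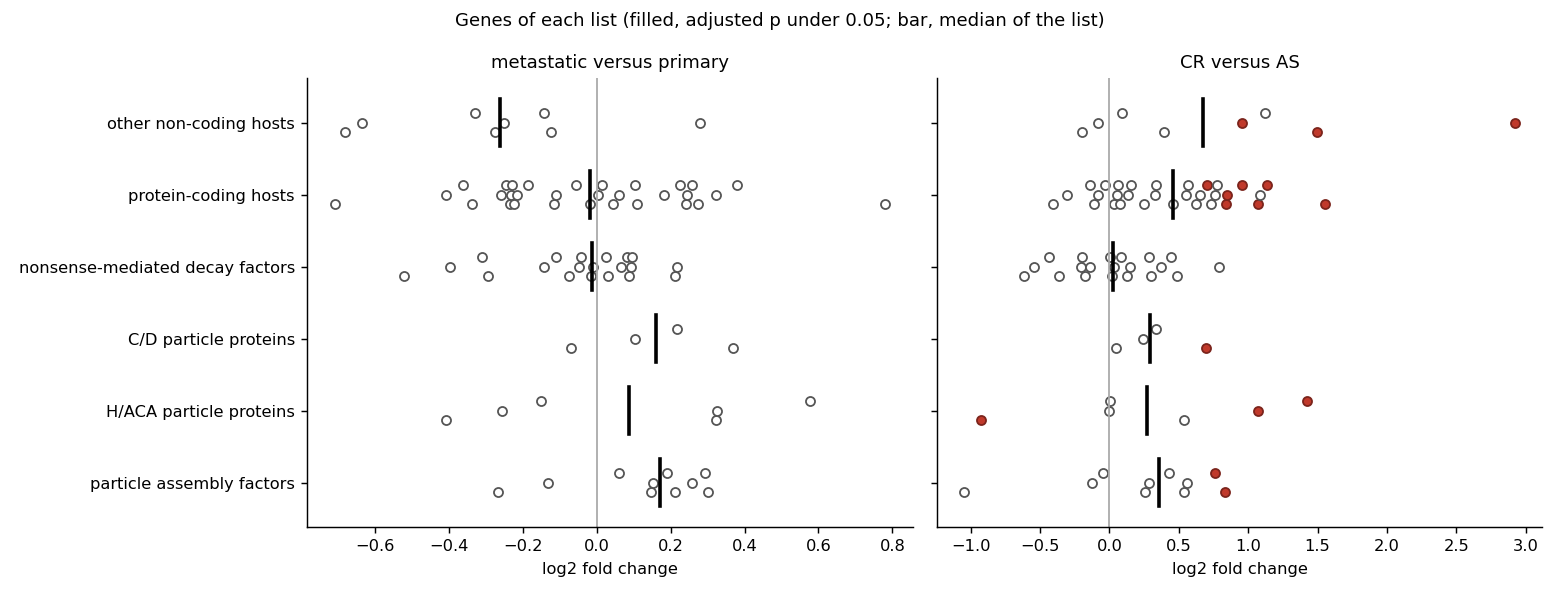
Log2 fold change of each tested gene (circles) in the 6 lists, for metastatic against primary tumors at left and CR against AS tumors at right; filled circles have adjusted p under 0.05 and bars are list medians. At left every circle is open, and at right the filled circles lie above 0 except Nop10 at -0.93.

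As a description over the 8 tumors, the protein-coding genes whose log2(CPM + 1) followed each host most closely were Rps26 (r = 0.973), Atm and Tdrd9 for Gas5 and Rpl10 (r = 0.971), Rps18 and Rplp2 for Snhg12. Those for Snhg3 were Fam219b (r = 0.994), Smim7 and Coa6, and those for Snhg5 were Alpl (r = 0.992), Stmn2 and Il11ra1. Those for Snhg11 were Gpc6 (r = 0.987), Ttn and Gjc3. The mean levels of Alpl, Stmn2, Gpc6 and Gjc3 were 0.819, 0.55, 0.554 and 0.323 CPM, and Snhg11 reached 1.34 CPM at most. Every r with Snhg11, and those of Alpl and Stmn2, thus rest on low counts. Among the hosts themselves r ran from -0.841 for Snhg3 with Snhg11 to 0.755 for Gas5 with Snhg5, and was 0.0897 for Gas5 with Snhg3. The tumors of these correlations share the groups and the depth of their libraries, and no test was run on them.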

How the data were processed

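RNA from 8 Myc-CaP tumors was measured with stranded, ribosomal RNA depleted total RNA libraries and 101-base paired reads. The deposited values are raw counts per gene, which the authors made from reads mapped uniquely to mm10 (GRCm38) with up to 2 mismatches. The methods name Bowtie, and the submitters' processing notes name TopHat2 2.0 and CASAVA 1.8.2. The counting tool and annotation release are not given in the sources used here. The study compared fewer primary tumors and does not name them, and all 4 were used here.

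Genes were fitted with edgeR 4.0.16 (R 4.3.3): filterByExpr, TMM factors, the quasi-likelihood test and Benjamini-Hochberg adjustment over all genes tested, with a threshold of 0.05. Metastatic and primary tumors were compared without covariates (17104 genes), and CR and AS tumors with tumor type as covariate (18889 genes). Single ratios were tested by exact two-sided permutation. DESeq2 1.42.0 and limma 3.58.1 (voom), other scalings, no filter, each tumor left out and possible pairings as a block were alternatives. The fits were tested on simulated data. Counts were assigned to M21 genes by identifier, 36343 of 38115 rows, and figures were drawn with matplotlib 3.10.9.

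Members and gene lists were chosen with earlier results of these data known. Named genes were the members, their hosted RNAs, up to 4 called genes of each list in each direction (or the smallest p), and the 3 protein-coding genes most like each member. Low counts limit Snhg11 and most short RNAs. Intervals from a count of 0 cover counting error only.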

Additional observations from a re-analysis of the deposited data

Results flagged for a closer look

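Of 36 sets of 4 tumors checked for a value far from the others (5 hosts and 4 ratios of hosted RNA to host, each in primary, metastatic, AS and CR tumors), 6 held one. Chance alone marks about 1 such set in 20, and the sets share tumors. Primary CR1 was far above the other primary tumors for Gas5, at 401 CPM against 296 to 297 CPM, and for Snhg5, at 26.8 CPM against 10.4 to 12.2 CPM. Metastatic CR1 was far above the other metastatic tumors for Snhg12, at 207 CPM against 55.2 to 77.9 CPM, and for Snhg5, at 21.9 CPM against 11.7 to 13.4 CPM. Primary AS2 was far above the other AS tumors for Snhg3, at 314 CPM against 182 to 200 CPM. Metastatic CR2 was far above the other metastatic tumors for Snhg11, at 1.34 CPM against 0.177 to 0.363 CPM.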

How the results depend on the processing

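The count of genes called between CR and AS tumors moved most: 3520 with DESeq2, 3098 without the low-count filter, 5 among primary tumors, 962 among metastatic tumors, and 429 to 3958 with each tumor left out (429 without metastatic AS1, 3958 without primary CR1). Hosts called in that comparison were 2 without the filter (Snhg3, adjusted p = 0.0081, and Snhg12, adjusted p = 0.0318, edgeR) and 0 to 1 with each tumor left out. Hosted RNAs called were 5 with DESeq2, 1 with limma-voom, 11 without the filter, 0 among primary tumors and 0 to 7 with each tumor left out, 0 without metastatic AS1 or metastatic AS2 and 7 without primary CR1. The interaction called 2 genes with DESeq2 and 217 without the filter.

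Between metastatic and primary tumors the Gas5 log2 fold change was -0.24 without metastatic CR1 (up to 0.27 with each tumor left out) and -0.039 in AS tumors. That of Snhg5 was 0.0075 with DESeq2, 0.0075 with RLE factors, 0.063 with protein-coding scaling, 0.054, 0.054, 0.054 and 0.055 with the possible pairings as a block, 0.097 in AS tumors, 0.042 without metastatic AS1, 0.086 without metastatic AS2, 0.41 without primary CR1, 0.033 without metastatic CR2 and, at its lowest, -0.23 without metastatic CR1. Between CR and AS tumors Snhg11 was -0.67 with limma-voom, -0.31 in primary tumors, -0.30 without metastatic CR2 and, at its highest, 1.27 without primary CR1.

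The ratio of hosted RNAs to Gas5 differed by -0.24 between the phenotypes as a median over hosted genes, and by -0.42 between tumor types without metastatic CR1 (up to 0.695 with each tumor left out). That to Snhg5, whose hosted RNAs had 0 reads in 4 tumors, mostly restates the host's level and differed by 0.29 between the phenotypes with a pseudocount of 0.1 CPM and by 0.16 without primary CR1 (-0.38 at the lowest), and by -0.037 between tumor types without primary CR1 (0.39 at the highest). That to Snhg12 differed between tumor types by -0.11 to 0.18 with each tumor left out, below 0 without primary AS1, primary AS2, primary CR1, metastatic CR1 or metastatic CR2, and by 0.62 between the phenotypes without primary CR1, where that to Snhg3 differed by -0.30. With each tumor left out, these differences between the phenotypes ran from -0.30 to -0.018 for Snhg3 and from 0.36 to 0.62 for Snhg12. The rest of the Snhg12 count differed by -0.32 to 0.16 between tumor types (0.16 without primary CR1) and by -0.28 to 0.20 between the phenotypes (below 0 without primary AS1 or primary CR1), an alternative chosen after seeing the data. The cause of these changes was not tested.

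No paired analysis was possible because the labels do not say which metastasis belongs to which primary tumor, and with each of the 4 possible pairings as a block 0 genes were called. Counts per tumor of 0 to 37 limit Snhg11.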
